A study of Homo sapiens with 15 samples.

Results

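The 9 genes described here encode the class I antigen presentation pathway: the heavy chains HLA-B, HLA-C and HLA-E, the light chain B2M, the peptide transporter TAP1 and TAP2, the immunoproteasome subunits PSMB8 and PSMB9, and the transactivator NLRC5. They were chosen by name, as members of that pathway, from the 60721 genes in the count table, with earlier results of these data known. All 9 passed the filter on low counts that left 17457 genes for testing. RNA was sequenced from MCF-10A cells, an immortalised, non-tumorigenic line of human mammary epithelium. None of the cells was treated. The 15 libraries fall into 5 genotypes of 3 biological replicates each. These are parental cells (the unmodified line), cells that received an empty vector, and NF1-edited cells made with guide RNA 1, with guide RNA 2, or with guides 1 and 2 together. NF1 encodes neurofibromin, a protein that switches RAS off. Whether an edited line was 1 clone or a pool, and whether replicates came from separate editing events, is not given in the sources used here, so p-values measure the spread between these libraries.

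Class I molecules display peptides from inside the cell to CD8 T cells and natural killer cells. The proteasome cuts proteins into peptides, the TAP transporter carries the peptides into the endoplasmic reticulum, and tapasin, calreticulin and PDIA3 help to load them onto a heavy chain paired with B2M. In epithelial cells the genes are transcribed at a basal level and are induced by interferons through factors that include IRF1 and NLRC5, the last of which binds class I promoters with the RFX complex.

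The sequences upstream of HLA-B, HLA-C, TAP1 and PSMB9 are shown because HLA-C and TAP1 passed the test against the empty vector, HLA-B had the widest range of the 9 genes, and PSMB9 shares its upstream region with TAP1. Each run is the 250 bases before the RefSeq transcription start on GRCh38.p14, read 5′ to 3′ on the strand of the gene, and this line's own alleles may differ from the reference. HLA-B lies on the minus strand at chr6:31357180-31357429, HLA-C on the minus strand at chr6:31272093-31272342, TAP1 on the minus strand at chr6:32853705-32853954 and PSMB9 on the plus strand at chr6:32853942-32854191. Capitals mark letters that match 1 of 5 motifs on either strand.
HLA-B: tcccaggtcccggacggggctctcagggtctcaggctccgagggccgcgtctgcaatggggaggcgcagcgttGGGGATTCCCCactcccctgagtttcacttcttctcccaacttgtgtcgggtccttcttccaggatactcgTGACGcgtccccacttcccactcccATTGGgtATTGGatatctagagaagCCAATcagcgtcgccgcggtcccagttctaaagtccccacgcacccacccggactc
HLA-C: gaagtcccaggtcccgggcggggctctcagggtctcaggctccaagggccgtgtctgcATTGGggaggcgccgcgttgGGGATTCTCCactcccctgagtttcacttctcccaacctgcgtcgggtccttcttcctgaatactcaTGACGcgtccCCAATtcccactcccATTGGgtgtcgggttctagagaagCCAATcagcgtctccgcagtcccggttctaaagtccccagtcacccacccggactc
TAP1: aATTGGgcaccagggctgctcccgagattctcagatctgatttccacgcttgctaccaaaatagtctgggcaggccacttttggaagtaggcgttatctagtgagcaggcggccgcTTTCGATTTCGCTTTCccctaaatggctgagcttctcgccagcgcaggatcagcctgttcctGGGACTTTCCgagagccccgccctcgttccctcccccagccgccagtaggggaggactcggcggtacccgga
PSMB9: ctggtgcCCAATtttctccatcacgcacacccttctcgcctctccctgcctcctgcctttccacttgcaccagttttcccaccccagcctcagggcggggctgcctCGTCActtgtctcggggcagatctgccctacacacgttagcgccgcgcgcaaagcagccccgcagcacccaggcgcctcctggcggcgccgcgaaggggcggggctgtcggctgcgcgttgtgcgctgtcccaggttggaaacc

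The motifs were GAAA followed by any 2 bases and GAAA again (the core of the interferon-stimulated response element), TTCNNNGAA (the gamma-activated site), TGACG (as in the X2 box), ATTGG (as in the Y box) and the kappa B site, and windows of 300 bases were searched, from 250 before to 50 after each start. Of 35116 such windows in the RefSeq table, 3.57% held the interferon element core, 7.66% the gamma-activated site, 24.6% TGACG, 34.6% ATTGG and 5.91% the kappa B site. These shares are per window. For the 9 genes there were 9 windows, covering 7 genes, as TAP1 and PSMB8 had 2 each and HLA-E and NLRC5 none. The interferon element core was found for B2M, TAP1, TAP2 and PSMB8, in TAP1 as a pair of overlapping matches on the opposite strand. The gamma-activated site was found for TAP1, in its other window, and for PSMB8. The kappa B site was found for HLA-B, HLA-C, B2M and TAP1. TGACG was found for 6 genes, and ATTGG for 5. The HLA-B and HLA-C windows were identical at 269 of 296 aligned positions (90.9%). The TAP1 and PSMB9 starts lie head to head, 488 bases apart. These matches are letters in a reference sequence, and binding was not measured. The kappa B site was added to the search after the sequences had been read.

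In GENCODE release 29 on GRCh38, 7 of the 9 genes lie in the MHC on chromosome 6. The heavy chains are HLA-B (ENSG00000234745) at chr6:31269491-31357188, HLA-C (ENSG00000204525) at chr6:31268749-31272130 and HLA-E (ENSG00000204592) at chr6:30489467-30494205. TAP2 (ENSG00000204267, chr6:32821833-32838780), PSMB8 (ENSG00000204264, chr6:32840717-32844703), TAP1 (ENSG00000168394, chr6:32845209-32853978) and PSMB9 (ENSG00000240065, chr6:32844136-32859585) form a cluster further along. B2M (ENSG00000166710) is at chr15:44711487-44718877 and NLRC5 (ENSG00000140853) at chr16:56989485-57083531. The annotated HLA-B gene includes a long transcript that reaches over HLA-C, with 35 exon bases in common, and the 2 genes are close copies of each other. Of the exon bases of TAP2, 32.3% are also those of AL669918.1 on the same strand, and of those of PSMB8, 20.6% lie opposite the antisense gene PSMB8-AS1. How reads were divided between such genes is not given in the sources used here, so the levels of HLA-B, HLA-C, TAP2 and PSMB8 carry that uncertainty in every library.

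The libraries held 46129559 to 78976917 counts. NF1 itself had 115.3 to 158.7 CPM (counts scaled to a common library total) in the 6 unedited libraries and 26.0 to 51.3 CPM in the 9 edited libraries. Guide 2 replicate 2 stood apart from the other guide 2 libraries, at -91.89 on the first principal component (46.4% of the variance) against 45.96 and 47.8. The empty-vector libraries stood apart from all others on the second component (14.9% of the variance), at 36.86 to 44.33 against at most 5.58. The epithelial label was not borne out evenly: CDH1, the epithelial cadherin, was at 0.0191 to 1.79 CPM in the 3 guide 1 libraries, guide 2 replicates 1 and 3 and parental replicate 2, and at 14.8 to 127.3 CPM in the other 9. All 10 epithelial markers examined had a median of at least 1 CPM. Of 8 leukocyte markers, 3 had no count in any library, PTPRC (CD45) stayed at or below 0.0542 CPM, and the 8 summed to 3.29 to 7.01 CPM, nearly all of it CD14.

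The pathway was expressed in all 15 libraries, with very unequal levels between its genes. Per kilobase of the main transcript, B2M was highest at a mean of 272.7 CPM per kb over the 15 libraries, followed by HLA-C at 68.0, HLA-E at 42.9 and HLA-B at 36.2 CPM per kb. PSMB8 stood at 27.4, TAP2 at 15.7 and TAP1 at 10.5 CPM per kb, and PSMB9 (2.01) and NLRC5 (1.65) were lowest. Class II genes were near the floor: HLA-DRB1 had no count in any library, HLA-DRA reached at most 0.0175 CPM and CD74, the class II invariant chain, at most 0.145 CPM.

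**Figure D1:**
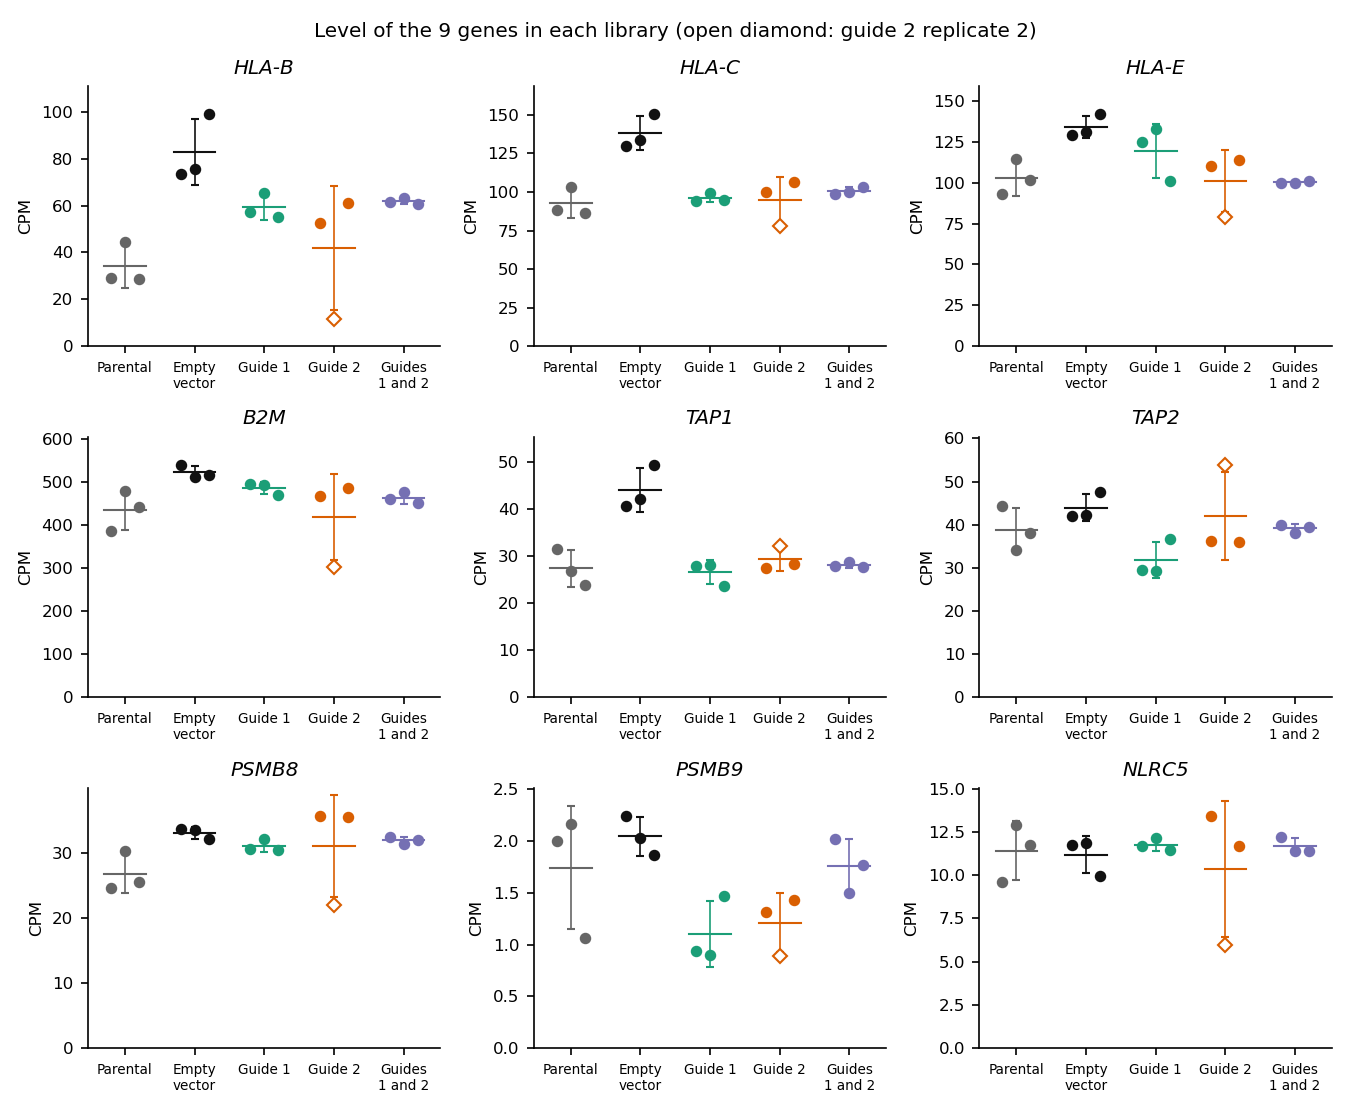
CPM of the 9 genes (1 panel each, linear axis from 0) in each library by genotype; points are libraries, lines the mean and bars the SD of 3. The 3 empty-vector libraries lie above all other libraries for HLA-B, HLA-C, B2M and TAP1, and guide 2 replicate 2 (open diamond) is the lowest library for HLA-B at 11.7 CPM.

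HLA-B, HLA-C and TAP1 had their highest levels in the empty-vector cells, and parental cells differed from the empty vector in the same direction as the edited cells. Across the 9 genes, 4 (HLA-B, HLA-C, B2M and TAP1) had all 3 empty-vector libraries above all 12 others, a pattern noticed in these data and seen in 4.3% of the genes tested. Of the 10 epithelial markers, 1 showed that pattern: LAMB3, a laminin chain, at 1187.3 to 1706.8 CPM with the empty vector and at most 904.2 CPM elsewhere. The 10 markers summed to 4953.6 to 7046.7 CPM with the empty vector and 2256.9 to 5625.6 CPM in parental cells. The sums were 1935.6 to 3004.1 CPM with guide 1, 2333.3 to 9551.7 with guide 2 and 2910.7 to 3127.7 with both guides. Their part in the class I levels was not tested. All 4 comparisons with the empty vector use the same 3 empty-vector libraries, so they are not independent of each other.

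TAP1, the transporter subunit whose start faces PSMB9, had 40.7, 42.2 and 49.4 CPM in the empty-vector libraries. Parental cells had 31.5, 26.9 and 23.8 CPM, guide 1 cells 28.0, 28.1 and 23.6, guide 2 cells 27.5, 32.1 and 28.2, and cells with both guides 27.8, 28.8 and 27.6 CPM. The empty-vector libraries were thus all higher than the 12 others, which overlapped each other. The means were 44.1 ± 4.64 CPM (SD, n = 3) with the empty vector, 29.3 ± 2.48 with guide 2, 28.1 ± 0.602 with both guides, 27.4 ± 3.88 in parental cells and 26.6 ± 2.58 with guide 1. Relative to the empty vector, the edgeR log2 fold change of TAP1 was -0.74 (SE 0.120, adjusted p = 0.00584) with guide 1, -0.61 (SE 0.120, adjusted p = 0.0167) with guide 2, -0.68 (SE 0.120, adjusted p = 0.0222) with both guides and -0.72 (SE 0.120, adjusted p = 0.00866) in parental cells. TAP1 was the only one of the 9 genes to pass the threshold in all 4 comparisons of the edgeR fit over the 15 libraries. No neighbours below the empty vector in that order differed in the test. The call with guide 2 was lost without empty-vector replicate 3 or guide 2 replicate 1 or 3, and the call with both guides without empty-vector replicate 2 or 3 or any replicate with both guides. The guide 2 call was also lost when only the groups compared were fitted (adjusted p = 0.136), and the call with both guides when replicate number was a block (adjusted p = 0.0566).

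HLA-C, a classical heavy chain and a ligand of killer-cell receptors, had 130.0, 133.6 and 150.5 CPM with the empty vector. Parental cells had 88.1, 103.4 and 86.5 CPM, guide 1 cells 94.4, 99.0 and 95.1, guide 2 cells 99.7, 77.8 and 106.7, and cells with both guides 98.6, 100.2 and 103.5 CPM. The 12 libraries without the empty vector lay close together and below all 3 that had it. HLA-C was lower than in empty-vector cells in parental cells (log2 fold change -0.61, SE 0.113, adjusted p = 0.0131), with guide 1 (-0.53, SE 0.113, adjusted p = 0.0183) and with guide 2 (-0.56, SE 0.113, adjusted p = 0.0185). With both guides the value was -0.48 (SE 0.113, adjusted p = 0.0626), which missed the threshold. The 3 calls were lost without empty-vector replicate 3, and the guide 2 call when only the groups compared were fitted (adjusted p = 0.171). The guide 1 call was also lost without guide 1 replicate 1 or 2, and the parental call without parental replicate 3.

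HLA-B, the other classical heavy chain measured, was the most variable of the 9 genes. It had 73.6, 75.6 and 99.1 CPM with the empty vector, 57.5, 65.4 and 55.2 with guide 1, and 61.6, 63.4 and 60.7 with both guides. Guide 2 libraries had 52.5, 11.7 and 61.2 CPM, and parental libraries 28.97, 44.4 and 28.7 CPM. Except for guide 2 replicate 2, every edited library lay above every parental library and below every empty-vector library. The mean was 82.8 ± 14.2 CPM (SD, n = 3) with the empty vector and 34.0 ± 8.98 CPM in parental cells. HLA-B did not pass the threshold in any comparison of the edgeR fit over the 15 libraries. Relative to empty-vector cells it gave log2 fold changes of -1.32 (SE 0.416, adjusted p = 0.0945) in parental cells, -0.99 (SE 0.413, adjusted p = 0.210) with guide 2, -0.49 (SE 0.409, adjusted p = 0.527) with guide 1 and -0.44 (SE 0.409, adjusted p = 0.721) with both guides. Its standard error was over 3 times that of TAP1 or HLA-C, and the highest library exceeded the lowest by 8.45-fold, or by 3.45-fold without guide 2 replicate 2.

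HLA-E, which presents signal peptides to natural killer cells, ranged from 79.3 to 142.0 CPM and had its highest value in empty-vector replicate 3. Empty-vector libraries had 129.1 to 142.0 CPM, but guide 1 replicate 2 reached 132.8 CPM, so those 2 groups overlapped. B2M had 511.4 to 539.5 CPM with the empty vector and 303.3 to 496.2 CPM in the 12 other libraries. Its edgeR log2 fold changes against the empty vector lay between -0.33 and -0.11 and none passed the threshold. HLA-E gave -0.44 to -0.18, also short of the threshold. The highest library exceeded the lowest by 1.79-fold for HLA-E and by 1.78-fold for B2M, far less than for HLA-B.

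TAP2, the partner of TAP1, passed no threshold in the edgeR fit over the 15 libraries. Set against empty-vector cells its log2 fold change was -0.48 (SE 0.150, adjusted p = 0.0830) with guide 1, -0.19 with both guides, -0.08 with guide 2 and -0.21 in parental cells. With guide 1 it was called in 4 of 13 alternatives, by DESeq2 (adjusted p = 0.0374), by voom, with only the groups compared (adjusted p = 0.0215) and without guide 2 replicate 2 (adjusted p = 0.00511). Guide 1 cells had 29.5, 29.4 and 36.7 CPM of TAP2 and empty-vector cells 42.0, 42.2 and 47.5 CPM, without overlap. The ratio of TAP1 to TAP2 per kilobase was 84.7% ± 2.93 (SD, n = 3) with the empty vector, 71.7% ± 15.1 with guide 1 and 59.7% to 60.6% in the other 3 genotypes. In guide 1 replicate 3 it was 54.2%, within the range of those genotypes. The ratio was not tested.

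PSMB8 and PSMB9 replace the catalytic subunits PSMB5 and PSMB6 in the immunoproteasome. PSMB8 had 32.1 to 33.6 CPM with the empty vector, 24.6 to 30.3 in parental cells, 30.4 to 32.2 with guide 1, 31.3 to 32.5 with both guides, and 35.7, 22.1 and 35.5 CPM in the guide 2 libraries. Apart from guide 2 replicate 2 the edited libraries lay above the parental libraries. Per kilobase, PSMB8 was at 26.9% of PSMB5 over the 15 libraries (range 20.3% to 30.8%), whereas PSMB9 was at 2.45% of PSMB6 (range 1.35% to 3.59%). PSMB9 had 49 to 138 counts per library, so its precision is lower. It had 0.938, 0.899 and 1.47 CPM with guide 1, 1.32, 0.888 and 1.43 with guide 2 and 1.87 to 2.24 CPM with the empty vector. Neither guide 1 nor guide 2 libraries overlapped with the empty-vector libraries, but the log2 fold changes of -0.90 (SE 0.287, adjusted p = 0.0855) and -0.76 (SE 0.286, adjusted p = 0.166) missed the threshold. PSMB9 reached 2.02 CPM with both guides and 2.16 CPM in parental cells, so these genotypes did overlap with the empty vector. Their edgeR log2 fold changes were -0.24 (adjusted p = 0.806) and -0.26 (adjusted p = 0.677) in that order.

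**Figure D2:**
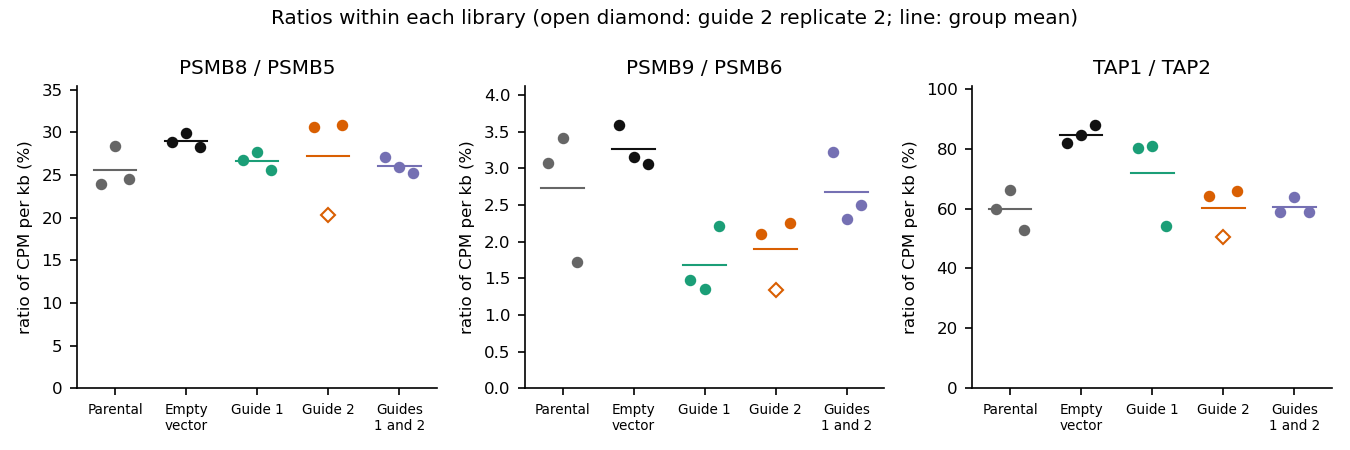
Ratio of CPM per kb, in percent, of PSMB8 to PSMB5, PSMB9 to PSMB6 and TAP1 to TAP2 in each library by genotype; points are libraries and lines group means. TAP1 relative to TAP2 averages 84.7% with the empty vector, and PSMB9 reaches at most 3.59% of PSMB6.

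NLRC5, the class I transactivator, had similar means in the 5 genotypes. Its mean was 11.2 ± 1.08 CPM (SD, n = 3) with the empty vector, 11.4 ± 1.68 in parental cells, 11.8 ± 0.353 with guide 1, 11.7 ± 0.461 with both guides and 10.3 ± 3.91 with guide 2. Guide 2 libraries had 13.4, 5.94 and 11.7 CPM, and the other 12 libraries lay between 9.61 and 12.9 CPM. With guide 1 its log2 difference from empty-vector cells was 0.06 (95% interval -0.42 to 0.55), and no comparison passed the threshold.

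Counted over the 9 genes, 2 were lower than the empty vector at adjusted p under 0.05 with guide 1, beside 5.88% of all tested genes called in either direction. With guide 2 there were 2 (3.94% of all tested genes), with both guides 1 (0.962%) and in parental cells 2 (4.37%). None was higher. Libraries did not overlap and were lower than the empty vector for 6 of the 9 genes in each comparison, beside 18.1% of tested genes with guide 1, 10.9% with guide 2, 17.2% with both guides and 14.1% in parental cells. The median log2 fold change of the 9 genes was -0.48, -0.42, -0.24 and -0.33 in that order, and that of all tested genes was 0.02, 0.03, -0.00 and 0.01.

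**Figure D3:**
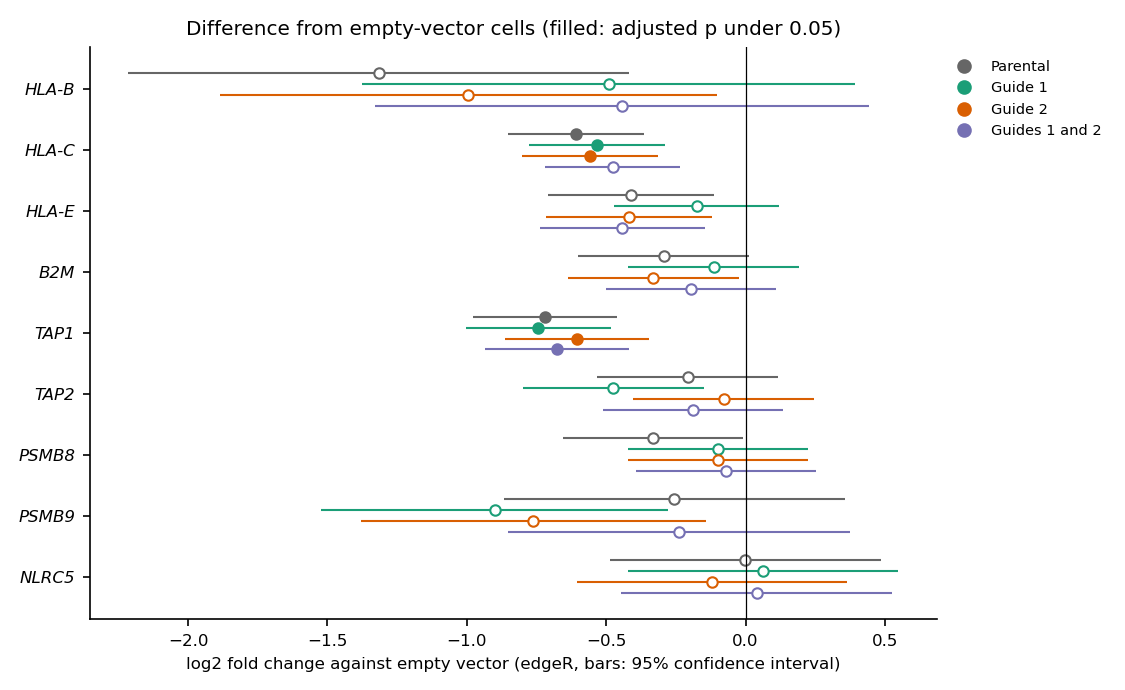
edgeR log2 fold change of each gene against the empty vector, with 95% confidence intervals, for parental cells and the 3 edited lines; filled points passed adjusted p under 0.05. TAP1 lies between -0.74 and -0.61 in all 4 genotypes, and the intervals of HLA-B are the widest.

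Against parental cells no member was called with guide 1 (0.149% of all tested genes called), guide 2 (0.0516%) or both guides (0.195%). TAP1 differed by -0.02 with guide 1 (95% interval -0.28 to 0.23), 0.11 with guide 2 (-0.15 to 0.37) and 0.04 with both guides (-0.22 to 0.30). Voom with quality weights, which called 9230 of the 17457 tested genes with guide 1, turned the sign of TAP1 there and called it higher (0.21, adjusted p = 0.0211), and also called TAP1 higher with guide 2 (adjusted p = 0.0375) and both guides (adjusted p = 0.0441). HLA-C differed by 0.07 with guide 1 (-0.17 to 0.32). The fitted difference of HLA-B from parental cells was 0.82 with guide 1 (-0.07 to 1.72, adjusted p = 0.276), 0.32 with guide 2 (-0.57 to 1.21, adjusted p = 0.951) and 0.87 with both guides (-0.02 to 1.76, adjusted p = 0.516). HLA-B and PSMB8 were the 2 genes whose libraries did not overlap and were higher than parental with guide 1 (11.2% of tested genes) and with both guides (11.6%), and with guide 2 there were 0 (3.83%). At an unadjusted p under 0.05 edgeR gave 1 gene with guide 1 (PSMB9, lower) and 0 with guide 2 or both guides, and DESeq2 called 0 in each. The shares of all tested genes are not given for these unadjusted and DESeq2 counts.

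With the mean of the 3 edited lines set against the mean of both controls, 0 of the 9 genes were called, beside 1.51% of all tested genes. The smallest adjusted p-values were 0.0620 for TAP1 (log2 fold change -0.32, SE 0.0766) and 0.158 for HLA-C (-0.22, SE 0.0723). At an unadjusted p under 0.05 there were 3 genes, TAP1, HLA-C and PSMB9, and DESeq2 called 1, TAP1. The shares of all tested genes are not given for these 2 counts, so they cannot be set against other genes. HLA-B stood at 0.01 (95% interval -0.56 to 0.59), whereas voom with quality weights called it higher (0.31, adjusted p = 0.011). Between the edited lines, edgeR called 0 of 9 for guide 1 against guide 2 (0.0401% of tested genes), both guides against guide 1 (0.275%) and both guides against guide 2 (0.149%). The counts at an unadjusted p under 0.05 were 1, 1 and 0, and DESeq2 called 0 in each, again without the shares of all tested genes.

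Guide 2 replicate 2 was low for most of the pathway. Without it, the highest library exceeded the lowest by 1.40-fold for NLRC5, against 2.26-fold with it. As a share of the mean of guide 2 replicates 1 and 3, it held 20.6% for HLA-B, 47.4% for NLRC5, 62.0% for PSMB8, 63.7% for B2M, 64.6% for PSMB9, 70.8% for HLA-E and 75.3% for HLA-C. TAP1 (115.3%) and TAP2 (149.1%) were not low. Thus 7 of 9 genes were below that mean, as were 49.3% of all tested genes, and the median was 64.6% for the 9 genes and 100.7% for all. For HLA-B, 4.27% of tested genes were as low or lower, and for NLRC5 14.2%. The share was 21.4% for PSMB8, 22.3% for B2M, 22.7% for PSMB9, 26.3% for HLA-E and 29.3% for HLA-C. For TAP1 it was 62% and for TAP2 80%.

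In the same library the 10 interferon-response genes ran from 12.4% (IFI44L) to 79.9% (IRF7) of the mean of guide 2 replicates 1 and 3. IFI6 (17.7%), IFIT2 (18.7%) and IFIT3 (24.5%) were among the lowest, and DDX58 (75.0%) and OAS1 (76.8%) were nearer that mean. The class I-like gene MR1 (22.3%) was also low, as were PSMB10 (43.4%), STAT2 (43.8%) and HLA-F (46.6%). Of the 14 regulators 9 were below that mean, among them RFX5, a part of the RFX complex. RFXAP (235.1%) and RFXANK (120.4%), also parts of that complex, were above it, as were NFKB1 (171.9%), IFNGR2 (115.4%) and RELA (109.1%). The standard proteasome subunits PSMB5 (93.6%), PSMB6 (104.8%) and PSMB7 (98.2%) were close to the other guide 2 libraries. KRT14, a basal keratin, was at 1146.7 CPM there and at 18.9 and 17.4 CPM in guide 2 replicates 1 and 3, and TP63, a basal transcription factor, at 75.8 against 0.0542 and 0.0723 CPM. Of the 10 epithelial markers 8 were above the mean of guide 2 replicates 1 and 3, and KRT8 (43.1%) and LAMB3 (86.4%) were below it. Of the fibroblast markers DCN (15.2%) and PDGFRB (20.1%) were low and COL1A1 (149.5%) was not, and the 5 summed to 62.0 to 407.0 CPM in the guide 2 libraries. Summed over the 10 epithelial markers the guide 2 libraries ranged from 2333.3 to 9551.7 CPM. Empty-vector replicate 3, the library highest for HLA-B, had 68.0 CPM of TP63 and 308.7 CPM of KRT14. In bulk RNA, fewer cells of a kind and less RNA per cell cannot be told apart, and the part of these markers in the class I levels was not tested.

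**Figure D4:**
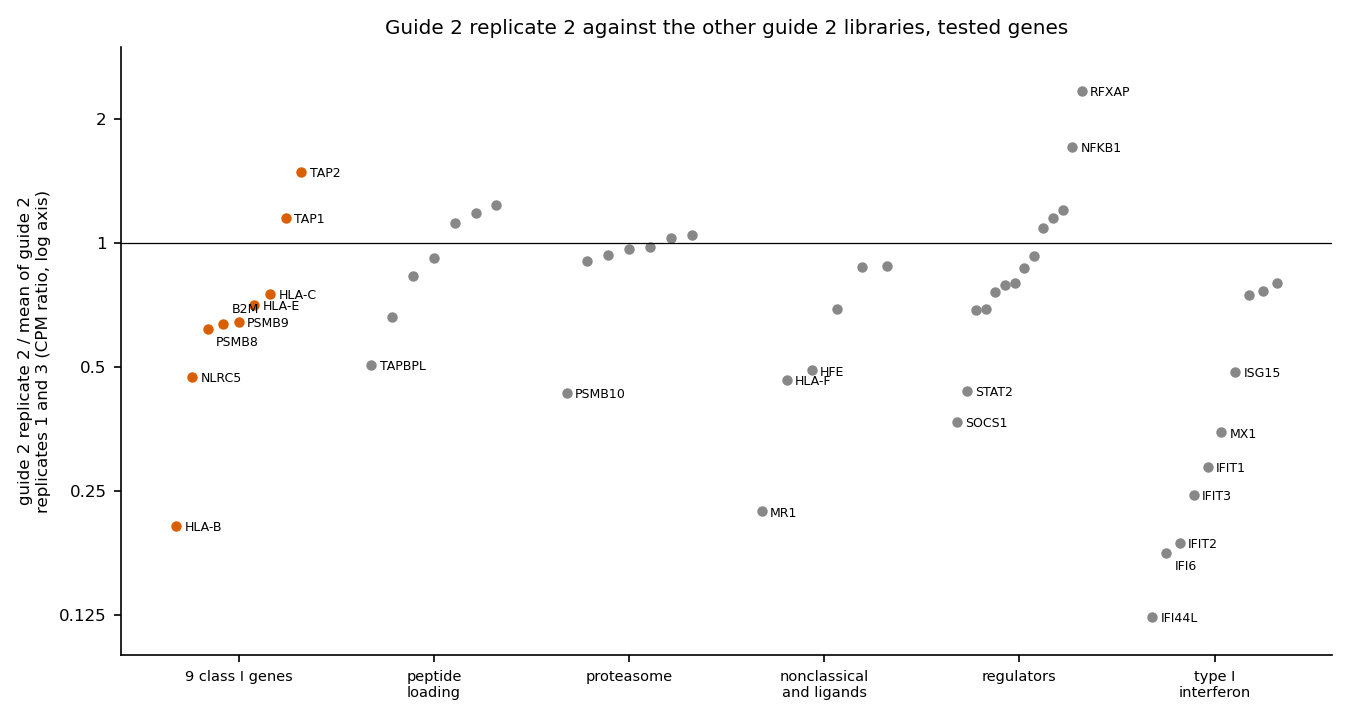
Ratio of CPM in guide 2 replicate 2 to the mean of guide 2 replicates 1 and 3 (log axis) for the 9 genes and 5 related groups; points are genes. HLA-B lies at 20.6% and IFI44L at 12.4%, while most proteasome genes lie near 1.

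Fitted without guide 2 replicate 2, more genes passed the threshold, both among the 9 and among all genes. Against the empty vector the fits called 5 of the 9 with guide 1 (18.1% of all tested genes), 3 with guide 2 (14.5%), 3 with both guides (6.7%) and 6 in parental cells (13.9%), all lower. HLA-B was then called with guide 1 (log2 fold change -0.50, adjusted p = 0.0412), guide 2 (-0.57, adjusted p = 0.0468) and in parental cells (-1.33, adjusted p = 0.000426), and not with both guides (-0.45, adjusted p = 0.105). Against parental cells HLA-B was called higher with guide 1 (0.83, adjusted p = 0.00828; 1 of 9 genes, 14.5% of all), guide 2 (0.75, adjusted p = 0.0257; 2 of 9, 5.96%) and both guides (0.87, adjusted p = 0.0128; 1 of 9, 2.62%). Against the mean of both controls HLA-C, TAP1 and TAP2 were called lower (3 of 9, 18% of all), and HLA-B was at 0.15 (adjusted p = 0.338). For comparisons that do not involve guide 2, leaving this library out was chosen after seeing the data.

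The peptide-loading genes were a list of 7, all tested. TAPBP, which encodes tapasin, had 171.9 to 176.8 CPM with the empty vector and 83.8 to 145.7 CPM in the other 12 libraries. Against the empty vector it was lower with guide 2 (log2 fold change -0.64, adjusted p = 0.0192). It was at -0.40 with guide 1, -0.46 with both guides and -0.47 in parental cells, short of the threshold. PDIA3, the oxidoreductase of the loading complex, was lower than in empty-vector cells with guide 1 (-0.33, adjusted p = 0.0126), guide 2 (-0.41, adjusted p = 0.00581) and in parental cells (-0.35, adjusted p = 0.0131). So 1 of 7 was lower with guide 1, 2 with guide 2, 0 with both guides and 1 in parental cells, and none was higher. The shares of all tested genes called were 5.88%, 3.94%, 0.962% and 4.37%, and they apply to the next lists too. ERAP1, which trims peptides, was lower in the edited lines against both controls (-0.28, adjusted p = 0.0294).

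None of the 7 proteasome genes was called by edgeR against the empty vector, and at an unadjusted p under 0.05 there was 1, in parental cells. Of the 6 class I-like genes and natural killer ligands tested, only ULBP2, a ligand of NKG2D, was called. It was lower than in empty-vector cells with guide 1 (-0.90, adjusted p = 0.0111), guide 2 (-1.01, adjusted p = 0.00802) and in parental cells (-0.93, adjusted p = 0.0122). Among 14 regulators, the interferon-gamma receptor genes IFNGR1 (-0.59, adjusted p = 0.0457) and IFNGR2 (-0.33, adjusted p = 0.0138) were lower than in empty-vector cells with guide 2. IFNGR2 was also lower in parental cells (-0.30, adjusted p = 0.0207). IFNGR1 averaged 103.9 CPM with the empty vector, 91.9 with guide 1, 69.6 with guide 2, 70.5 with both guides and 78.3 in parental cells. IFNGR2 averaged 93.5, 82.2, 75.1, 83.1 and 77.7 CPM in that order. With guide 1 and with both guides neither was called against the empty vector. IRF1 was not called against the empty vector. Of the 10 interferon-response genes, 7 had positive values with guide 1 (median log2 fold change 0.41), 5 with guide 2 (0.02), 6 with both guides (0.20) and 5 in parental cells (0.05), and 0 were called in any of the 4 comparisons by edgeR. At an unadjusted p under 0.05 there were 1 to 3 in each. The class II list had 3 of 8 genes tested and none called, with 0 or 1 in each comparison at an unadjusted p under 0.05. Against parental cells no gene on the related lists was called with guide 1, guide 2 or both guides. The shares of all tested genes called there were 0.149%, 0.0516% and 0.195%. These related lists were tested in the fit over all 15 libraries and not under the alternatives. For the counts at an unadjusted p under 0.05 the shares of all tested genes are not given.

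The genes most like the mean of the 9 standardised log2 levels over the 15 libraries, among those not in the list and above an average log2 CPM of 1, were PKM (Pearson r = 0.968), PPARD (0.954), PCYT1A (0.948), HLA-F (0.943) and FURIN (0.943). PKM, a glycolytic enzyme, averaged 2885.6 CPM with the empty vector and 2347.3 to 2508.7 CPM in the other genotypes. Of the 9 genes themselves, HLA-C (0.96) and HLA-B (0.909) lay closest to that mean and TAP2 (-0.0338) did not follow it. Each of the 9 is part of that mean, which raises its own correlation, so these values are not comparable with those of PKM and the other genes outside the list. These correlations describe the same 15 libraries, share each library's total, and have the empty-vector libraries (mean standardised level 0.89 to 1.21) and guide 2 replicate 2 (-1.6) at the extremes.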

How the data were processed

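The authors deposited raw counts per gene for the 15 libraries. The deposited CPM equal those counts divided by library totals. Trim Galore 0.6.0, STAR 2.7.8a and GRCh38 are named per the submitters' processing notes; the counting program, annotation and use of strand are not given in the sources used here. Per the labels, polyadenylated RNA was measured. Positions come from GENCODE release 29 and symbols from a table of gene names.

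Counts were tested with edgeR 4.0.16 in R 4.3.3: filterByExpr by genotype (17457 genes), TMM scaling, and 1 quasi-likelihood group-means fit over all 15 libraries with 10 residual degrees of freedom. Tests were two-sided with Benjamini-Hochberg adjustment over all tested genes, and called means an adjusted p under 0.05. Each SE is the size of the log2 fold change over the square root of the F statistic. CPM per kb uses the length of the main annotated transcript. The alternatives were DESeq2 1.42.0, voom with quality weights in limma 3.58.1, other scaling, no filter, a replicate block, only the groups compared, and each library left out. On simulated counts for guide 1 against the empty vector, with 200 of 17174 genes changed 2-fold, 45% were recovered. Replicates of a genotype differed beyond counting noise in 24.6% to 76.8% of genes, so no pair was 1 library deposited again. All 9 genes are named whatever their values. The values of 1 gene among the regulators are not reported here. The genes and lists were chosen with earlier results of these data known.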

Additional observations from a re-analysis of the deposited data

How the results depend on the processing

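No comparison changed sign for TAP1, HLA-C or HLA-E against the empty vector in the alternatives run, and the direction of the TAP1 and HLA-C calls held in all of them. Of the 9 genes, DESeq2 called 4 with guide 1, 2 with both guides and 1 for the edited lines against both controls. A fit of only the groups compared called 5 with guide 1, 0 with guide 2, 5 with both guides and 4 in parental cells against the empty vector. Voom with quality weights called 5, 7, 4 and 8 in the same order. It called 7, 4 and 5 for guide 1, guide 2 and both guides against parental cells, 5 for the edited lines against both controls, 3 for guide 1 against guide 2 and 3 for both guides against guide 1. It also gave 0.085 for PSMB8 and 0.091 for NLRC5 with guide 2 against the empty vector, called HLA-B higher in the edited lines against both controls (0.31), and moved PSMB9 to -0.83 in parental cells against the empty vector and to 0.60 with both guides against parental cells, both called. The shares of all tested genes called are not given beside these counts. The counts therefore do not show that the 9 genes were called more often than other genes. As stated above for guide 1 against parental cells, voom also called many genes outside the 9. The cause of these differences was not tested.

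With 1 library left out, the count called ran from 1 to 5 (guide 1), 0 to 3 (guide 2), 0 to 3 (both guides) and 1 to 6 (parental) against the empty vector. It ran from 0 to 1, 0 to 2 and 0 to 1 for the edited lines against parental cells. For their mean against both controls it ran from 0 to 3. The upper ends came without guide 2 replicate 2, where the shares of all tested genes called, given above, were also larger. Against the empty vector NLRC5 ran from -0.018 to 0.091 (guide 1), -0.37 to 0.14 (guide 2), -0.033 to 0.069 (both guides) and -0.11 to 0.12 (parental). TAP2 ran from -0.31 to 0.0071 and PSMB8 from -0.23 to 0.076 with guide 2, and PSMB9 from -0.45 to 0.0047 in parental cells. HLA-B ran from -0.060 to 0.75 for guide 2 against parental cells and from -0.12 to 0.15 for the edited lines against both controls.

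Same-numbered replicates did not deviate together (mean correlation -0.0497 over 30 pairs), so the numbers were not taken as a pairing. With replicate number as a block, 0 genes were called with both guides against the empty vector and the other counts were as before. NLRC5 in parental cells was 0.0054 and HLA-B in the edited lines against both controls -0.00098 under the block.

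Depth limits PSMB9 most, at 49 to 138 counts a library. The 3 replicates a genotype and the wide spread of guide 2 limit the other comparisons. The simulation was run for guide 1 against the empty vector only, where 45% of the 200 genes changed 2-fold were recovered. It does not measure recovery in the other comparisons.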
